A study of Mus musculus with 6 samples.

Results

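The set holds 9 genes, chosen by name, of the 52636 in the count table: the simple keratins Krt8, Krt18 and Krt19, the classical cadherins Cdh1, Cdh2 and Cdh3, the tight junction scaffold Tjp1, the intermediate filament Vim, and the desmosomal linker Dsp. They were followed across the 8 cell types and both genotypes of mouse choroid and retinal pigment epithelium (RPE, the pigmented layer under the retina) after culture. The samples came from male C57BL/6J mice aged 12 to 16 months, 3 with the intact gene (Dram2 wt/wt, here wt) and 3 knockouts (Dram2 ko/ko, here ko), which carried a constitutive CRISPR/Cas9 deletion in Dram2 in every cell. The choroid and RPE of the eyes were dissociated and then grown together. Whether the RPE cells formed a sheet again in culture was not examined here. The labels put 5 samples in batch 1, and ko replicate 3 was the only sample of batch 2. The labels do not say whether a sample was 1 animal or a pool, so p-values measure the spread between these samples.

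Keratins are filament proteins that pair as one type I chain (Krt18, Krt19) with one type II chain (Krt8), and simple epithelia such as the RPE are known for the Krt8 and Krt18 pair. Classical cadherins join neighbouring cells through calcium. Cdh1 (E-cadherin) is the epithelial form, Cdh2 (N-cadherin) is common in mesenchyme and nerve, and Cdh3 (P-cadherin) is the form known from mouse RPE. Tjp1 (ZO-1) links tight junction and other junction proteins to actin, and Dsp ties desmosomes to intermediate filaments. Vim forms the filaments of mesenchymal cells, and RPE cells are known to make it in culture.

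The 6 samples held 2140 to 6648 cells and 96.8 to 122.7 × 1e6 UMIs (unique molecular identifiers, each counting 1 captured RNA molecule). Of the 25428 cells, 1492 were named RPE by the study, that is 56, 539 and 152 for wt and 68, 102 and 575 for ko, at a median of 12559 to 33968.5 UMIs per cell. Dram2 itself had 33.4, 39.6 and 38.1 UMIs per 1e6 UMIs (CPM) over all cells in wt and 30.7, 28.3 and 30.1 in ko. The deleted part lies away from the 3′ end that these libraries read, so this level checks no label. Of 13 RPE markers, 10 were highest in the RPE type, 2 of which are the members Krt8 and Krt18 themselves, so that part of the check is not independent of the set. The others included the RPE transcription factor Otx2 (87.4 CPM against 0.119 in Fibroblast), whereas the visual cycle isomerase Rpe65 was at 0.693 CPM and Best1, an RPE channel, at 0.196 CPM. Fibroblast markers summed to 352 to 1263 CPM in the RPE sums against a mean of 5248 in Fibroblast, and markers of corneal and conjunctival epithelium to 2.01 at most. Fibroblast markers also summed to means of 3308 CPM in Myeloid, 1124 in Endothelial and 5862 in Pericyte. The part of fibroblast RNA in the member levels of these types was not tested. The type named Pericyte had its 8 pericyte markers at a summed mean of 238 CPM, against 209 in Fibroblast, with Cspg4 highest of all types (199 CPM) and Higd1b, Kcnj8 and Ndufa4l2 at 0. Its Schwann cell markers summed to a mean of 1633 CPM, against 8.04 at most in the other types. Its name is used here only as annotated. Samples wt replicate 2 and ko replicate 3 stood apart from the other RPE samples, as described with the single cells.

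On GRCm38, Krt8 (ENSMUSG00000049382, chr15:101996698-102004482, minus strand) and Krt18 (ENSMUSG00000023043, chr15:102028180-102032027, plus strand) are neighbours that point away from each other. The CACCTG box, the letters that repressors of the Snai and Zeb families are known to bind, was searched in both orientations (CACCTG or CAGGTG) in the 250 bases before the RefSeq start. Only the Krt18 window is reported here. It held the box once, as did 17.2% of 32851 RefSeq promoters at least once, and 36 of its 250 bases lie in an annotated Krt18 exon. The stretch with the box is shown because Krt18 carries the main difference between RPE and the other types in the values that follow, and nothing is drawn from the match. It is 30 bases from GRCm38.p6, chr15:102027990-102028019, 5′ to 3′ on the plus strand, with the box, which starts 214 bases before the RefSeq start, in capitals.
Krt18: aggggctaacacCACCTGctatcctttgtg

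Krt18 set RPE apart from every other type, with the largest difference from Fibroblast among the members on the log2(CPM + 1) scale. Its level in the RPE sums was 972, 420 and 739 CPM in wt and 924, 976 and 231 CPM in ko, while the same samples had 2.21 to 6.84 CPM in Fibroblast. Every RPE value lay above every value of the other 7 types, whose highest was 17.1 CPM in Fibroblast-like, a shallow type with a median of 4825 UMIs per cell. On the log2(CPM + 1) scale RPE exceeded Fibroblast by 7.20 ± 1.15 (SD, n = 6 samples), a ratio of mean CPM of 203. The types were named from clusters of these same counts, so this and every other contrast between types is a description without a test. Of all 21042 Krt18 UMIs, 89.0% were in the RPE cells, which made up 5.87% of cells. Processed pseudogenes share part of the Krt18 3′ end (13.2% of the 31-base words of its last 400 bases), and the larger of them in counts, Gm5200, had 229 UMIs, 203 of them in RPE.

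Krt8, the type II partner, was also highest in RPE but had a very low count. Its RPE levels were 5.47, 1.13 and 4.57 CPM in wt and 8.77, 3.25 and 0.422 CPM in ko, from 84 UMIs in all. The Fibroblast type gave 3 Krt8 UMIs, Fibroblast proliferating 5, and the other 5 types none. RPE exceeded Fibroblast by 2.01 ± 1.04 on the log2(CPM + 1) scale and was higher in 6 of 6 samples, a value that understates the change because the Fibroblast side is near 0. Samples ko replicate 3 and wt replicate 2 were the lowest for both genes, but the order of the other 4 differed, with ko replicate 2 highest for Krt18 and the next lowest for Krt8. Of all Krt8 UMIs, 91.3% were in RPE.

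The other type II keratins did not make up the count. Over the 26 type II keratin genes of the table, the RPE sums held 6.62 ± 3.42 CPM (SD, n = 6) and 177 UMIs, against 873 ± 330 CPM and 24704 UMIs over the 28 type I genes. In Fibroblast the 2 totals were 3.82 ± 0.556 and 148 ± 11.8 CPM. These totals were drawn up after the values were seen. A 3′ UMI count does not scale with gene length, but capture can differ between genes, so the totals compare UMIs captured and not protein chains.

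Krt19 (ENSMUSG00000020911, chr11:100140810-100148665, minus strand), a type I keratin known from ducts and many simple epithelia, did not separate RPE from fibroblasts. RPE had 106, 126 and 123 CPM in wt and 132, 135 and 98.8 CPM in ko, and Fibroblast had 125, 115 and 110 CPM and then 124, 145 and 112 CPM. The difference was −0.02 ± 0.17 (log2, n = 6), with RPE higher in 3 samples and lower in 3. Fibroblast-like was highest (140 ± 25.04 CPM), and Fibroblast (122 ± 13.1), RPE (120 ± 14.6) and Fibroblast proliferating (103 ± 9.98) followed with ranges that overlapped from one to the next. All 6 Fibroblast proliferating values were above those of Myeloid (52.9 ± 25.4, n = 4), which overlapped in turn with Endothelial (52.7 ± 27.8), Fibroblast 2 (41.5 ± 9.45) and Pericyte (17.6 ± 15.7). RPE therefore held 6.32% of all Krt19 UMIs, close to its share of cells. The part of fibroblast RNA in the Krt19 values of Myeloid and Endothelial was not tested.

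**Figure D1:**
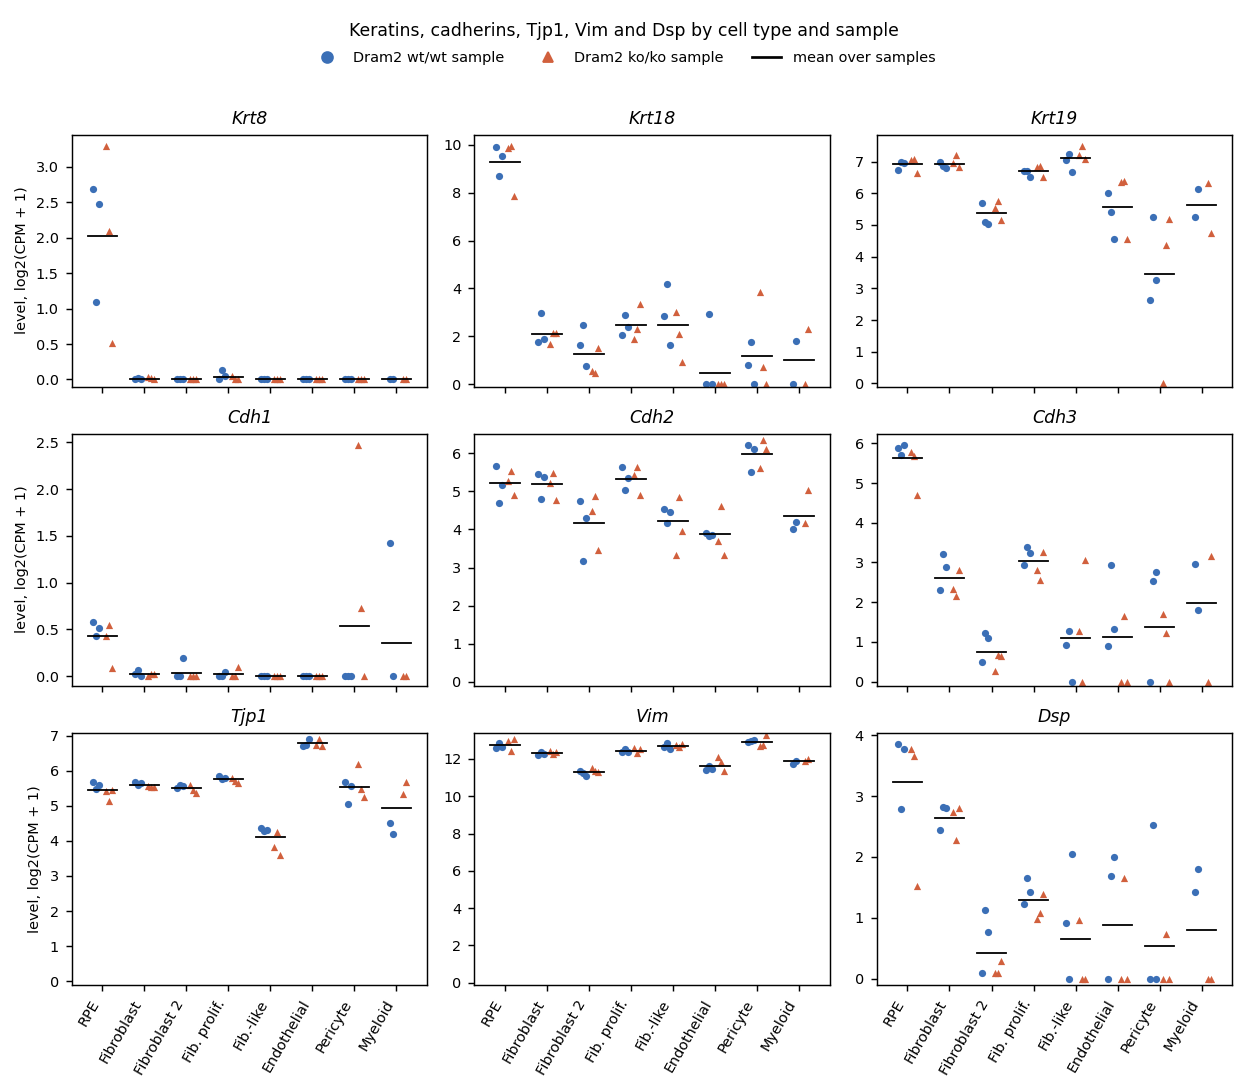
Level of each of the 9 genes as log2(CPM + 1) of the summed UMIs, by cell type, with 1 point per sample coloured by genotype and a bar at the mean. The vertical ranges differ between panels. Krt18, Krt8 and Cdh3 stand highest in RPE, Tjp1 in Endothelial, Krt19 and Cdh2 are at similar height in RPE and Fibroblast, and Vim is higher in RPE than in Fibroblast.

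Among the cadherins, Cdh3 was the form that marked RPE (ENSMUSG00000061048, chr8:106510891-106557297, plus strand). Its RPE level was 58.1, 51.2 and 60.7 CPM in wt and 54.0, 50.2 and 25.2 CPM in ko, with ko replicate 3 alone under 50 CPM. All 6 values were above the highest of any other type (9.45 CPM, in Fibroblast proliferating). RPE exceeded Fibroblast by 3.00 ± 0.67 (log2, n = 6), a ratio of mean CPM of 9.30. Fibroblast proliferating (7.30 ± 1.76 CPM) and Fibroblast (5.36 ± 1.87) overlapped, and Fibroblast 2 was lowest (0.708 ± 0.435).

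Cdh1 (ENSMUSG00000000303, chr8:106603351-106670246, plus strand), next to Cdh3 on the chromosome, was nearly undetected. It had 24 UMIs in 25428 cells, 10 of them in RPE, where each sample had 0.0604 to 0.497 CPM. Fibroblast had 6 UMIs and at most 0.0501 CPM, while the type named Pericyte had 3 UMIs and a mean of 0.866 CPM, above the RPE mean of 0.359. RPE was higher than Fibroblast in 6 of 6 samples, by 0.41 ± 0.19 on the log2(CPM + 1) scale, but 1 to a few UMIs per sample lie behind that value.

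Cdh2 (ENSMUSG00000024304, chr18:16588877-16809246, minus strand) did not separate RPE from fibroblasts. RPE had 50.2, 25.1 and 34.8 CPM in wt and 37.5, 45.5 and 29.1 CPM in ko, and Fibroblast had 42.9, 26.7 and 40.9 CPM and then 36.4, 44.0 and 26.6 CPM. The difference was 0.02 ± 0.16 (log2, n = 6), higher in 4 samples. Samples wt replicate 2 and ko replicate 3 were the lowest samples in both types and also in Fibroblast proliferating (31.9 and 28.98 CPM against 39.6 to 49.0) and Fibroblast 2 (8.01 and 10.1 CPM against 18.6 to 28.3), so Cdh2 varied between samples in 4 types alike. The type named Pericyte had the highest mean level (63.9 ± 14.7 CPM), and Endothelial the lowest (14.2 ± 4.93), where Cdh5, the cadherin of endothelium, was at 971 CPM.

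Tjp1 (ENSMUSG00000030516, chr7:65296165-65527781, minus strand) was found in every type, with its highest level in Endothelial and a level in RPE close to that in Fibroblast. Endothelial had 110 ± 8.001 CPM, and no other type reached its lowest value of 103. RPE had 50.2, 43.5 and 47.0 CPM in wt and 41.8, 33.9 and 43.0 CPM in ko, against 47.5 to 50.1 and 45.4 to 45.9 in Fibroblast. RPE differed from Fibroblast by −0.14 ± 0.14 (log2, n = 6) and was lower in 5 of 6 samples. Fibroblast-like was lowest (16.5 ± 3.51 CPM), apart from every sample of RPE and the 3 other fibroblast types.

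Vim (ENSMUSG00000026728, chr2:13573927-13582826, plus strand) was higher in RPE than in Fibroblast in every sample. RPE had 6271, 7549 and 6445 CPM in wt and 7931, 5581 and 8486 CPM in ko, and Fibroblast had 4819, 5319 and 4856 CPM and then 5557, 4913 and 5348 CPM. The difference was 0.44 ± 0.16 (log2, n = 6), a ratio of mean CPM of 1.37, and the lowest RPE value (5581) was above the highest Fibroblast value (5557). Only Pericyte had a higher mean (7889 ± 1236 CPM), and Fibroblast 2 had the lowest (2535 ± 254).

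Dsp (ENSMUSG00000054889, chr13:38151294-38198577, plus strand) gave 13.4, 5.93 and 12.6 CPM in RPE of wt and 12.6, 11.6 and 1.87 CPM in RPE of ko. In Fibroblast the range was 3.85 to 6.08 CPM. RPE was higher in 4 of 6 samples and lower in wt replicate 2 (−0.03) and ko replicate 3 (−1.28), with a mean difference of 0.58 ± 1.05 (log2). Both types were above the 6 others on average, the next being Fibroblast proliferating at 1.47 ± 0.422 CPM. Of the Dsp UMIs of all fibroblast types, 58.8% came from 1 sub-cluster, which is described with the sub-clusters.

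Scaling by TMM factors in place of UMI totals moved the median of 11250 genes between RPE and Fibroblast from 0.01 to −0.14 (log2). With it Cdh2 stood at −0.13, Krt19 at −0.18 and Tjp1 at −0.29, near or under that median, while Vim stayed above 0 at 0.29, Cdh3 at 2.86 and Krt18 at 7.08. Of the 11250 genes, those with a mean of 5 CPM or more in either type, 3.72% were over 2-fold higher in RPE in every sample and 4.44% over 2-fold lower. Among the members, Krt18 and Cdh3 were over that fold in every sample and none was lower, with Krt8 and Cdh1 under the level minimum.

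In single cells, thinned to 5000 UMIs so that depth did not set the share, 49.1% of 1363 RPE cells had a Krt18 UMI (exact 95% interval 46.4 to 51.8, which covers counting error only). The share over samples was 67.3% ± 23.8 and ran from 27.5% to 89.7%, and without thinning the mean was 79.6%. Fibroblast cells had 1.33%, Fibroblast proliferating cells 2.21% and Fibroblast-like cells 2.84%. Endothelial and Myeloid, types that should lack the gene, had 0.402% (1 of 249) and 1.43% (1 of 70), too few cells to set a background level. Whether the fibroblast UMIs were background was not tested. Median UMIs before thinning were 22905.5 in RPE, 26108 in Fibroblast and 9262.5 in Endothelial. Pooled over samples in the same way, Cdh3 was found in 16.1% of RPE cells, against 2.82% of Fibroblast cells and 0.803% of Endothelial cells. For Krt8 the RPE share was 1.25%, against 0 of 12294 Fibroblast cells, which allows a share of cells with a UMI at this depth of up to 0.0244%. Without thinning, 3 Fibroblast cells had a Krt8 UMI. For Krt19 the share was 36.0% in RPE and 35.6% in Fibroblast. Tjp1 was found in 17.02% of RPE cells and in 41.8% of Endothelial cells. Dsp was found in 2.57% of RPE cells and 2.44% of Fibroblast cells, while the RPE samples ran from 0.554% to 11.5%.

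In RPE cells pooled over samples, Krt8, Cdh3 and Dsp were found more often beside Krt18 than without it. Of the 17 thinned cells with a Krt8 UMI, 94.1% also had Krt18, against 48.5% of the RPE cells without Krt8. Cdh3 was found in 20.3% of cells with Krt18 and 12.1% of cells without, and Dsp in 4.04% and 1.15%. The samples differ in both genes of each pair, and within single samples the correlation across cells ran from −0.219 to 0.186 for Krt18 with Cdh3 and from −0.052 to 0.369 for Krt18 with Dsp, so these 2 pairs did not run together in every sample. For Krt8 with Krt18 it ran from 0.036 to 0.367 in the 5 samples that gave a value.

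Across the 46 sums of cell type and sample, whose points share samples and differ in depth, the same genes ran together. Pearson's r of log2(CPM + 1) was 0.861 for Krt8 with Krt18, 0.815 for Krt18 with Cdh3, 0.743 for Cdh3 with Dsp and 0.658 for Krt18 with Dsp. Vim followed Cdh2 (0.601), and Tjp1 ran weakly against Vim (−0.378). Among 11156 genes the most similar to Krt18 were Upk3bl (0.933), Ptgds (0.926) and Tmem56 (0.925), and to Krt8 Slc4a5 (0.963), Cntnap2 (0.952) and Ermn (0.951). Cdh3 was closest to Trpc6 (0.848), Ooep (0.844) and Atp1b1 (0.840). The genes named here as similar to Krt18, Krt8 and Cdh3 all had their highest type mean in RPE. Krt19 ran with the smooth muscle genes Lmod1 (0.799) and Acta2 (0.797). Vim was closest to the tubulin Tuba1a (0.877), Hspb6 (0.865) and Gm2115 (0.856), and Tjp1 to the BMP receptor Bmpr2 (0.896), Spag9 (0.893) and Pim3 (0.883). For Cdh2 they were Smarcc1 (0.808), Gpc1 (0.803) and Tecr (0.789), for Dsp Serpinb9 (0.766), Tshr (0.766) and Cdh3 itself, and for Cdh1, at its few UMIs, Ak3 (0.602), Pkp1 (0.561) and Il34 (0.545).

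The RPE type was not uniform, and the members differed inside it. Counted without thinning, cells with no Krt18 UMI made up 12.5%, 37.5% and 7.24% of RPE cells in wt and 10.3%, 2.94% and 51.8% in ko. Samples wt replicate 2 and ko replicate 3 were the high ones, and they also held the most RPE cells. Depth enters such shares, and its part was not tested. Median UMIs per RPE cell were 12559 in wt replicate 2 and 27558 in ko replicate 3, against 19373 to 33968.5 in the others. A group of RPE cells with 2 or more UMIs over Pax6, Optc, Pcp4l1 and Zic1, genes picked after these values were seen, numbered 2, 125 and 4 in wt and 5, 0 and 338 in ko, 474 of the 1492. Of these, 463 came from those 2 samples. Of the 474, 85 had exactly 2 UMIs of the 4 genes, and another 155 RPE cells had exactly 1, so these cells lie near the limit. A further 863 RPE cells had 0. The group is defined by a count, and what its cells are was not tested.

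Within wt replicate 2, Krt18 was 92.4 CPM in the group and 547 CPM in the remaining RPE cells, and within ko replicate 3 it was 121 and 427 CPM. Dsp was 0 against 8.22 CPM in the first sample and 0.282 against 4.71 CPM in the second. Cdh3 was 25.4 against 61.2 and 17.1 against 39.5 CPM, and Krt19 89.6 against 139 and 84.8 against 124 CPM. These 4 genes were lower in the group in both samples. Cdh2 differed less (23.2 against 25.9 and 27.4 against 32.1 CPM). Tjp1 was not lower (48.5 against 41.6 and 46.9 against 36.2 CPM), and Vim was 8147 against 7318 and 8462 against 8529 CPM.

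The group kept optic transcription factors at the level of the remaining RPE cells in the case of Six3 (200 against 195 and 230 against 201 CPM) and Lhx2 (115 against 102 and 113 against 95.1 CPM), whereas Otx2 was lower (36.0 against 85.3 and 39.2 against 90.4 CPM). The RPE genes Rgr (0.626 against 34.6 and 1.22 against 14.97 CPM), Rlbp1 (1.25 against 6.41 and 1.13 against 5.05 CPM) and Ttr (0.313 against 6.89 and 0.188 against 1.85 CPM) were at 1.25 CPM or less in the group and higher in the remaining RPE cells, whereas Mitf did not run one way (2.51 against 5.44 and 3.01 against 2.52 CPM). The smooth muscle actin Acta2 was higher (10663 against 6259 and 10787 against 7425 CPM), as was fibronectin Fn1 (1597 against 639 and 1127 against 632 CPM). Snai2, a repressor of epithelial genes, was 37.3 against 21.5 and 31.7 against 13.3 CPM, while Zeb2 was 73.3 against 75.2 and 83.1 against 101 CPM. Of the other mesenchymal genes read, the smooth muscle gene Tagln (11357 against 6742 and 11568 against 8732 CPM), the collagen Col1a1 (338 against 266 and 200 against 120 CPM) and Zeb1 (38.8 against 26.1 and 38.7 against 32.3 CPM) were higher in the group in both samples. The others did not run one way, with the matrix genes Mgp at 313 against 573 and 173 against 130 CPM and Dcn at 64.8 against 104 and 38.4 against 31.6 CPM, and Prrx1 at 145 against 69.9 and 130 against 144 CPM. The cycling gene Top2a was higher in the group within both samples, at 161 against 122 and 240 against 159 CPM. Pooled over all samples, 57.4% of the group had 2 or more UMIs of Mki67 and Top2a, against 25.2% of the remaining RPE cells, but the 2 samples that hold the group also had the most cycling RPE cells (34.0% and 52.5%). Median depth was 28563.5 UMIs in the group and 18026 outside it. The part of cycling and depth in these differences was not tested. With the group left out, Krt18 exceeded Fibroblast by 7.42, Cdh3 by 3.16 and Dsp by 0.89 (log2).

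**Figure D2:**
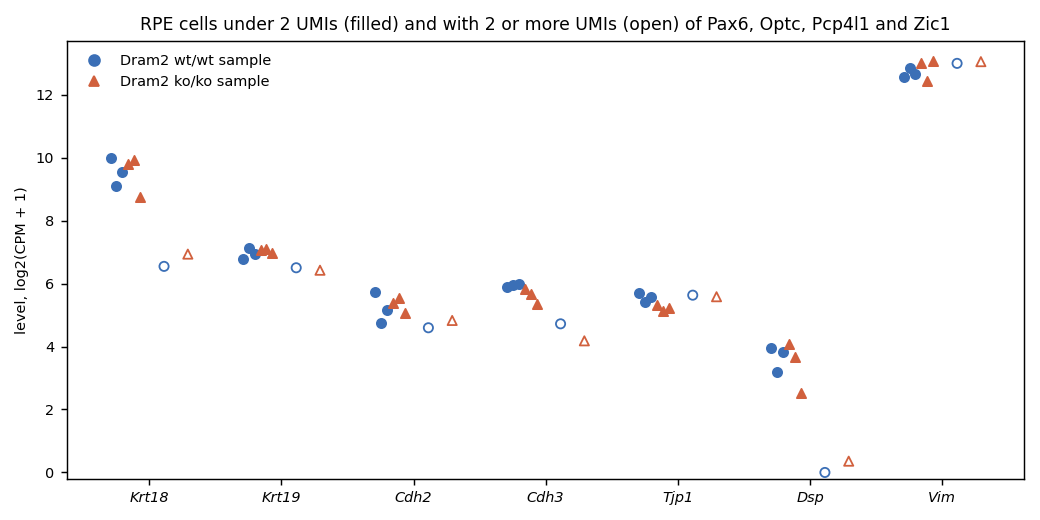
Krt18, Krt19, Cdh2, Cdh3, Tjp1, Dsp and Vim in RPE cells with 2 or more UMIs over Pax6, Optc, Pcp4l1 and Zic1 (open points) and in the remaining RPE cells (filled). Values are log2(CPM + 1) of the summed cells. The remaining cells are drawn for all 6 samples, the group only for wt replicate 2 and ko replicate 3. Within each of those 2 samples Krt18, Cdh3, Krt19 and Dsp are lower in the group, and Tjp1 is not.

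The Dsp level of fibroblasts was highest in a single sub-cluster. The study divided its 4 fibroblast types, 23256 cells, into 9 sub-clusters, and sub-cluster 4 with 1558 cells (6.70%) held 1311 of the 2231 Dsp UMIs (58.8%). Its Dsp level was 34.7, 31.2 and 30.8 CPM in wt and 44.8, 32.4 and 33.8 CPM in ko. The other fibroblast cells had 1.58 ± 0.479 CPM (SD, n = 6), with a highest sample of 2.23. Every sample of sub-cluster 4 was thus above every sample of RPE, whose highest was 13.4 CPM. Of its cells, 36.0% had a Dsp UMI against 3.25% of the other fibroblast cells, at similar median depth (23388.5 and 23697 UMIs).

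Genes of the desmosome, keratin and epithelial lists went in both directions in sub-cluster 4, and those named here were chosen after their values were seen. Jup (plakoglobin, which binds Dsp) was 66.7 against 45.05 CPM in the other fibroblast cells, Perp, a desmosome membrane protein, 607 against 273, and Krt7, a simple type II keratin, 8.44 against 2.62. The epithelial transcription factor Grhl3 was 3.45 against 0.645 CPM. Each of these was higher in 6 of 6 samples. The desmosome gene Pkp2 went the other way (28.8 against 52.6 CPM, lower in 6 of 6), as did Krt19 (39.4 ± 6.41 against 112). Krt18 was at 5.50 ± 6.96 CPM in the sub-cluster, with 19.0 CPM in wt replicate 2 and 0.735 to 6.84 in the others. The other fibroblast cells had 3.60 ± 1.35 CPM of Krt18, and the sub-cluster was higher in 2 of 6 samples. Cdh1 had 1 UMI in the sub-cluster. Vim was 3307 ± 249 CPM, under the 5135 of the Fibroblast type, which itself includes 1543 cells of the sub-cluster.

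**Figure D3:**
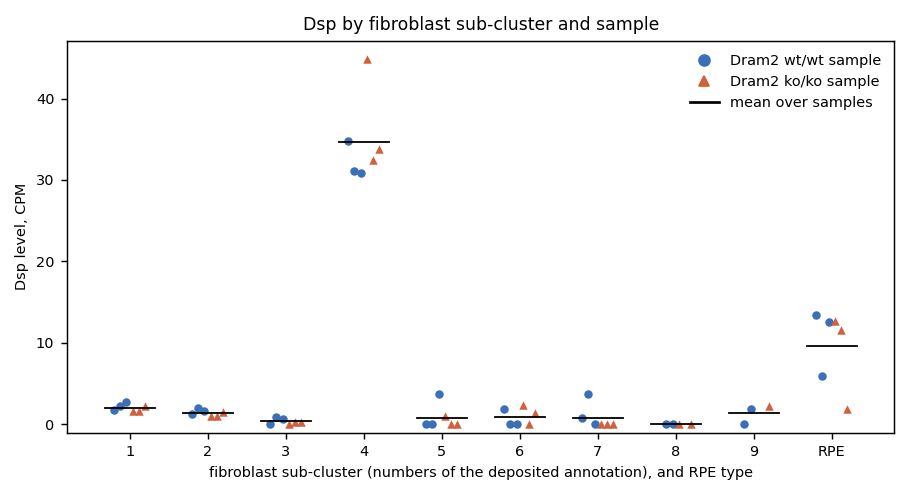
Dsp level (CPM of summed UMIs) in each fibroblast sub-cluster and in RPE, with 1 point per sample and a bar at the mean. Sub-cluster 4 lies between 30.8 and 44.8 CPM, above all RPE samples and all other sub-clusters.

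Other members differed between sub-clusters as well. Cdh2 and Cdh3 had their highest means in sub-cluster 6 (477 cells, 74.98 ± 18.4 and 15.3 ± 8.06 CPM), where Vim was 1922 ± 219 CPM and Krt18 had no UMI. Of its cells, 168 were of the shallow Fibroblast-like type. How far few UMIs per cell set the absence of Krt18 there was not tested. The Cdh3 value rests on 44 UMIs, with samples from 3.69 to 23.1 CPM that overlap those of sub-clusters 1, 2, 4, 5, 7 and 9. Sub-cluster 5 (812 cells, 763 of them of the shallow Fibroblast-like type) had the highest mean Krt19 (165 ± 30.8 CPM) and Vim (7873 ± 975 CPM) beside a low Tjp1 (16.4 ± 4.91 CPM). The sub-clusters were formed from the same counts, so these values describe them.

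Between genotypes no member was called in any type. In RPE, by voom-limma, 0 of 8 members tested had an adjusted p under 0.05, as did 0% of all 12333 genes. The log2 fold change (ko against wt, with its 95% interval) was −0.13 [−1.53, 1.26] for Krt18, 0.04 [−0.38, 0.46] for Krt19, 0.12 [−0.60, 0.83] for Cdh2 and 0.11 [−0.31, 0.54] for Vim. It was −0.57 [−1.33, 0.19] for Cdh3, −0.18 [−0.55, 0.19] for Tjp1 and −1.27 [−3.02, 0.47] for Dsp. For Krt8 it was −1.11 [−3.70, 1.48], while the mean CPM was 3.72 in wt and 4.15 in ko, opposite to the fit. The adjusted p was 0.999945 for all 8. The intervals for Krt8 and Krt18 include 2-fold changes in both directions and those for Dsp and Cdh3 a fall of more than 2-fold, so changes of that size are not excluded.

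The lowest RPE values of Krt8, Krt18, Krt19, Cdh3 and Dsp, and of Cdh1 on 1 UMI, were those of ko replicate 3. That sample is also batch 2, so batch and sample cannot be told apart. Without it, within batch 1, the RPE log2 fold change was 0.51 for Krt18, 1.59 for Krt8, 0.63 for Dsp and −0.05 for Cdh3, with adjusted p from 0.596 to 0.964 over the members. With the cells of the Pax6, Optc, Pcp4l1 and Zic1 count left out of all samples, it was −0.03 for Krt18, −0.18 for Krt8, −0.39 for Dsp and −0.34 for Cdh3. None of these values had an adjusted p under 0.05.

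Tjp1 was the only member whose RPE values did not overlap between genotypes, at 43.5 CPM or more in wt and 43.0 CPM or less in ko, and 7.57% of all RPE genes did not overlap either. It was also apart in Fibroblast (−0.11 [−0.27, 0.06], lower in ko), where 11.6% of all genes were. In Fibroblast the other changes were −0.23 [−1.11, 0.64] for Krt18, 0.12 [−0.13, 0.37] for Krt19, −0.05 [−0.56, 0.46] for Cdh2, −0.45 [−1.11, 0.22] for Cdh3, 0.08 [−0.12, 0.27] for Vim and −0.11 [−0.57, 0.34] for Dsp, with adjusted p from 0.916 to 0.983, and 0.00503% of all genes were called there. In Fibroblast-like, Tjp1 alone of 4 members did not overlap, beside 8.4% of all genes, and in Myeloid, with 2 samples against 2, 2 of 3 did not, beside 33.7%. For Vim, Tjp1, Krt19, Cdh2 and Dsp in Fibroblast the intervals exclude a change of 2-fold either way.

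Over the 8 types the members had 41 tests and 0 calls, by voom-limma and also by edgeR's quasi-likelihood test and by DESeq2. Cdh1 had too few UMIs to be tested within any type. It entered only the interaction test below, on 10 UMIs in RPE and 6 in Fibroblast. Before adjustment, 2 of the 41 tests were under 0.05 in voom-limma. They were Krt18 in Fibroblast 2 (−1.59 [−3.09, −0.08], adjusted p = 0.768) and Tjp1 in Myeloid (1.23 [0.32, 2.15], adjusted p = 0.618). The share of all genes called was 0.222% in Fibroblast 2, 0.624% in Fibroblast proliferating, 0.0118% in Pericyte, 0.0296% in Myeloid and 0% in Fibroblast-like and Endothelial. The difference of the genotype effect between RPE and Fibroblast was tested directly, and 0 of 9 members and 0% of 19951 genes were called. It was −0.93 [−3.72, 1.86] for Krt8, −0.64 [−2.49, 1.21] for Dsp, −0.43 [−3.49, 2.62] for Cdh1 and 0.27 [−1.55, 2.09] for Krt18. It was 0.17 for Cdh2, −0.12 for Krt19, −0.07 for Cdh3, 0.06 for Vim and −0.05 for Tjp1, and the adjusted p was 0.99993 for each of the 9.

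**Figure D4:**
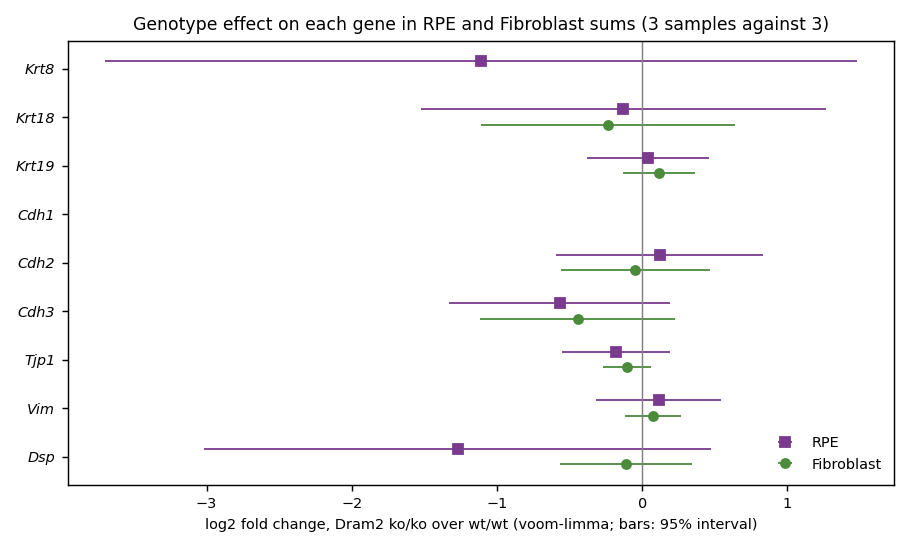
Log2 fold change of each tested member between ko and wt in RPE and in Fibroblast, with bars for the 95% interval of voom-limma. All intervals include 0, and those of Krt8, Dsp and Krt18 in RPE are the widest.

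The pathway genes around the members gave the wider setting, read against a median difference of 0.01 (log2) between RPE and Fibroblast over all 11250 genes. In each list, genes over 2-fold higher or lower in every sample are counted, to be set beside the 3.72% and 4.44% of all genes. Of 6 simple keratins only 2 reached the level minimum, Krt18 and Krt19, and of 12 stratified keratins 1 (Krt10, 23.4 CPM in RPE and 19.0 in Fibroblast). Among 6 of 12 other intermediate filament genes that could be measured, 0 were higher and 1 was lower, the muscle filament Des (−3.40 ± 0.91, 12.1 against 116 CPM).

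Of 18 classical and type II cadherins, 5 were measured, with Cdh3 higher and 1 lower, the mesenchymal cadherin Cdh11 (−2.19 ± 0.67, 49.4 against 211 CPM). Of 15 cadherin-associated genes 13 were measured, and 2 were higher: Plekha7, which ties cadherin complexes to microtubules (2.54 ± 0.43, 20.3 against 2.65 CPM), and the adhesion protein Nectin1 (1.41 ± 0.20, 49.5 against 17.9 CPM). Nectin2 was at −1.36 ± 0.47 and Jup at −0.62 ± 0.13.

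Of 28 tight junction genes 16 were measured, 4 higher and 1 lower, with a list median of 0.14. The higher ones included Cldn1 (4.42 ± 0.41, 38.2 against 0.786 CPM), Cldn4 (3.11 ± 0.66, 9.41 against 0.135 CPM), both tight junction strand proteins, and the polarity gene Pard6b (2.84 ± 0.27, 8.47 against 0.301 CPM). Lower means were found for the junction adhesion genes Jam2 (−1.56 ± 0.36) and F11r (−1.08 ± 0.14). Tjp1 was therefore near the middle of a list whose claudins differed widely. Of 15 desmosome genes 5 were measured, 0 higher and 0 lower, with Pkp2 at 0.72 ± 0.16 (92.4 against 55.3 CPM, higher in 6 of 6 samples) and Perp at 0.00.

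Of 19 genes of epithelial identity 5 were measured and 2 were higher, Lsr, a tricellular junction protein (4.30 ± 0.82, 39.99 against 0.870 CPM), and the protease inhibitor Spint2 (3.89 ± 0.80, 108 against 5.82 CPM). Of 11 mesenchymal transcription factors 9 were measured, 0 higher and 5 lower, with a median of −2.43. Prrx2 (−2.87 ± 0.55, 56.0 against 389 CPM), Prrx1 (−2.86 ± 1.61) and Foxc2 (−2.85 ± 0.72) were the lowest, while Zeb1 (−0.22 ± 0.29) and Zeb2 (−0.05 ± 0.08, 75.7 against 78.3 CPM) were close to 0. Of 18 mesenchymal effectors 17 were measured, 0 higher and 7 lower, with a median of −1.98, led by Col3a1 (−3.88 ± 0.85, 18.7 against 241 CPM) and the growth factor receptors Pdgfra (−2.96 ± 0.80) and Pdgfrb (−2.91 ± 0.60). Among the 17 measured genes of this list, Vim and Cdh2 had the highest mean differences, followed by the smooth muscle gene Tagln (−0.32 ± 0.39). None of the genes on these lists was called between genotypes in any type.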

How the data were processed

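The data were UMI counts from droplet single-cell libraries (10x Genomics 3′ chemistry) of cultured mouse choroid and RPE cells, 3 samples per genotype. The authors deposited raw UMI counts for each gene in each cell, made with cellranger against mm10 from exonic reads. The submitters' processing notes list Cell Ranger 3.1.0 and GRCm38. Filters on cells were not given in the sources used here. Sample, genotype, batch, type and fibroblast sub-cluster of the cells came from a deposited annotation table. The types were named by the authors from Louvain clusters of batch-integrated counts (Seurat). Cells are numbered serially in these tables, so barcodes shared between libraries could not be counted.

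UMI counts were summed per sample and cell type where a sample had 10 or more cells of the type. Sums were scaled to CPM (UMIs per 1e6 UMIs of the sum), and levels were compared as log2(CPM + 1). Genotypes were compared within each type by voom-limma (R 4.3.3, limma 3.58.1, TMM factors and filterByExpr of edgeR 4.0.16), on all genes of the type, with Benjamini-Hochberg adjustment and a call at an adjusted p under 0.05. The interaction of genotype with type used the RPE and Fibroblast sums with sample as a factor. edgeR's quasi-likelihood test and DESeq2 1.42.0 were alternatives, beside other scalings, filters, cell selections, a batch covariate, and leaving out each sample. The fits were tested on simulated counts. For shares of cells with a UMI, each cell was thinned to 5000 UMIs, and shallower cells were left out. No doublet caller was run, and an alternative left out the cells with the highest UMI totals (1273 cells).

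All 9 genes are named throughout. From each pathway list the text draws on the up to 3 genes with the largest and the up to 3 with the smallest difference between RPE and Fibroblast, among genes with a mean of 5 CPM or more in either type. Genes of like pattern are the 3 with the highest Pearson r over all sums, among genes with a mean of 10 CPM or more in a type. The members, the lists and the tests were chosen with earlier results of these data known. UMAP coordinates were not used here. A few genes and 1 sequence that these rules would name are not reported here.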

Additional observations from a re-analysis of the deposited data

How the results depend on the processing

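No member was called between genotypes, or in the interaction, under any alternative (123 counts over types and settings, all 0). Same-numbered samples of the 2 genotypes did not deviate together (correlations of −0.515 to 0.255 in RPE and −0.349 to 0.085 in Fibroblast), so the numbers name samples only; with the replicate number as a block, 0 members were called in any type, and RPE Dsp stood at −0.78 and Krt8 at −0.35. The uncalled genotype log2 fold changes of the members in RPE and Fibroblast were recomputed under each setting, and 195 recomputed values had the sign of the reported value and 23 did not; for the interaction these were 91 and 11. In RPE, Krt8 turned to 0.14 with edgeR, 0.19 with DESeq2 and 1.49 with batch as a covariate, and Krt18 to 0.027 with edgeR, 0.034 with DESeq2 and 0.53 with batch. Krt19 turned to −0.038 without the filter on low counts, Dsp to 0.63 with batch, and Cdh2 in Fibroblast to 0.15 with batch. In the interaction, Krt18 turned to −0.019 without the cells of highest UMI totals and Cdh3 to 0.13 without the Pax6, Optc, Pcp4l1 and Zic1 cells, an alternative chosen after seeing the data. Only ko replicate 3 is in batch 2, so the batch covariate sets that sample apart. Its values are therefore not separate from those with that sample left out. The cause of the other changes of sign was not tested.

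Leaving out each sample in turn gave RPE fold changes of −2.52 to 1.59 for Krt8, −0.52 to 0.51 for Krt18, −0.060 to 0.23 for Krt19, −0.21 to 0.39 for Cdh2, −0.84 to −0.045 for Cdh3, −0.27 to −0.11 for Tjp1, 0.017 to 0.30 for Vim and −1.97 to 0.63 for Dsp. In Fibroblast they were −0.48 to 0.21 for Krt18, 0.011 to 0.22 for Krt19, −0.26 to 0.17 for Cdh2, −0.71 to −0.22 for Cdh3, −0.13 to −0.078 for Tjp1, 0.062 to 0.12 for Vim and −0.24 to 0.092 for Dsp. In the interaction they were −2.37 to −0.24 for Krt8, −0.58 to 0.91 for Krt18, −0.22 to −0.019 for Krt19, 0.070 to 0.25 for Cdh2, −0.46 to 0.75 for Cdh3, −0.12 to 0.0097 for Tjp1, −0.044 to 0.18 for Vim and −1.23 to 0.72 for Dsp. For Cdh1 only 1 of these fits gave an interaction value, −1.06.

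The level in RPE minus Fibroblast moved by less than its SD in 102 of 108 recomputed values. For Cdh1 it was 0.71 with a pseudocount of 0.5, 0.61 without the highest UMI totals and 0.68 as a mean over cells. For Tjp1 it was −0.29 with TMM scaling and −0.35 as a mean over cells, and for Cdh2 −0.18 as a mean over cells. Shares of RPE cells with a UMI, as means over samples, rose with depth. At 5000 UMIs they were 37.7% for Krt19, 14.6% for Cdh2, 19.02% for Cdh3, 15.6% for Tjp1, 2.62% for Krt8 and 5.25% for Dsp, and at 8000 UMIs and unthinned they were 50.4% and 69.7% for Krt19, 21.3% and 48.0% for Cdh2, 29.3% and 51.2% for Cdh3, and 26.6% and 52.4% for Tjp1, and unthinned 10.2% for Krt8 and 18.7% for Dsp. Krt8 and Cdh1 rest on 92 and 24 UMIs in all, and RPE values on 56 to 575 cells per sample.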
